A study of Mus musculus with 56 samples.

Results

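The 9 genes of epithelial adhesion and cell junctions described here were followed through the reprogramming of mouse fibroblasts: Cdh1, Epcam, St14, Ap1m2, Rab25, Lsr, Cldn3, Cldn4 and Cldn7. They were chosen by name, and all 9 of 9 were found among 13451 genes in sorted cells, 12935 genes at day 10 and 13861 genes in the end points. All 9 met the filter on low scores, as did every other gene of the 2 score tables. The starting cells were OG2-MEFs, mouse embryonic fibroblasts with an Oct4-GFP reporter that lights up late in reprogramming, used at passage 2. In the sorted series a doxycycline-inducible lentivirus carried Oct4, Sox2, Klf4 and Myc on 1 transcript and was delivered with rtTA, so the factor cells of both shRNA arms carried the same agents. Cells received a control shRNA (shLuci) or an shRNA against Ctcf, which encodes the insulator protein CTCF. Unsorted day 0 cells were followed by Thy1+, SSEA1+ and SSEA1-Thy1- (double-negative, here DN) cells from days 3, 6 and 9, and by GFP+ cells from day 12. That gave 11 populations with 2 libraries for each shRNA, 44 libraries in all. At day 10, cells with the factors on separate retroviruses carried a control, CTCF overexpression (pMXs-CTCF), or CTCF overexpression with an shRNA against Smarca5, in 2 libraries each. Infected cells of both systems grew in embryonic stem cell medium with vitamin C. The end points were 1 library of MEFs and 1 of induced pluripotent stem cells (iPSCs). The labels do not say that replicates came from separate cultures, so p-values measure only the spread between these samples, which may be technical.

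Fibroblasts move as single cells, while pluripotent cells form tight epithelial colonies, and reprogramming passes through a mesenchymal-to-epithelial transition. In epithelia, E-cadherin joins neighbouring cells at adherens junctions, claudins seal the space between them at tight junctions, and sorting proteins keep the apical and basolateral membranes distinct. Snail and Zeb transcription factors, which act in the opposite transition, repress E-cadherin by binding the E-box motif CACCTG. Cdh1 encodes E-cadherin. Epcam encodes an epithelial surface glycoprotein that also marks pluripotent cells. St14 encodes matriptase, a membrane serine protease of epithelia. Ap1m2 encodes the epithelial medium chain of the AP-1 sorting adaptor, and Rab25 an epithelial GTPase of the Rab11 family that acts in apical recycling. Lsr encodes angulin-1, which marks tricellular junctions, where 3 cells meet. Cldn3, Cldn4 and Cldn7 encode claudins.

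In GRCm38, the genes lay at chr8:106603351-106670246 (Cdh1, plus strand), chr17:87635979-87651129 (Epcam, plus), chr9:31089402-31131853 (St14, minus) and chr9:21294275-21312337 (Ap1m2, minus). Rab25 lay at chr3:88542029-88548300 (minus) and Lsr at chr7:30957770-30973464 (minus). Cldn4 lay at chr5:134945119-134946934 (minus) and Cldn3 at chr5:134986214-134987472 (plus), 39.3 kb apart, and Cldn7 at chr11:69964779-69967885 (plus). All are annotated as protein-coding. RefSeq promoters of build GRCm38.p6, 250 bases before to 50 bases after the start site, were at hand for 7 of the 9 genes, in 8 entries. Cdh1 and St14 are named only. The E-box CACCTG, searched on both strands (CAGGTG on the other), was present in 7 of the 8 entries and thus in 1 entry or more of all 7 genes. It was present in 20.2% of all 32851 promoters of that length. Epcam and Cldn4 are shown for their matches near the start site, and Lsr and Ap1m2, chosen after the matches were seen, because each held 4. Capitals mark the E-box on either strand, and each sequence reads 5′ to 3′ along the gene.
Epcam, chr17:87635729-87636028, plus strand: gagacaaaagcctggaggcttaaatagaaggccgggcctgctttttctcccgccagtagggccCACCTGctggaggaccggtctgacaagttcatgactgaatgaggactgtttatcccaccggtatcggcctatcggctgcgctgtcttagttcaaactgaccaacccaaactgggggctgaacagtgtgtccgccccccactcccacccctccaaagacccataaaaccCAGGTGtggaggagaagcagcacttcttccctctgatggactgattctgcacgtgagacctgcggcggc
Cldn4, chr5:134946885-134947184, minus strand: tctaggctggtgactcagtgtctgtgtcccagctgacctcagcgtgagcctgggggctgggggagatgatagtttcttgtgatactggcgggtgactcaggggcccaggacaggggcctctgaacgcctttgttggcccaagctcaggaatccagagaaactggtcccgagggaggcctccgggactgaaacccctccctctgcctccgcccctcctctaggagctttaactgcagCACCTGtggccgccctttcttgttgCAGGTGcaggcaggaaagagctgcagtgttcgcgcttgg
Lsr, chr7:30973420-30973719, minus strand: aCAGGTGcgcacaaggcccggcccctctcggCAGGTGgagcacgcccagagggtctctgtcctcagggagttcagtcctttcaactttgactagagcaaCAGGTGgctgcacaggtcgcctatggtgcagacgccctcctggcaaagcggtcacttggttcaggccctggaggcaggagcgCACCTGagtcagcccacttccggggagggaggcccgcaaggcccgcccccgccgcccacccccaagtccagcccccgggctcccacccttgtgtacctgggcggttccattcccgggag
Ap1m2, chr9:21312284-21312583, minus strand: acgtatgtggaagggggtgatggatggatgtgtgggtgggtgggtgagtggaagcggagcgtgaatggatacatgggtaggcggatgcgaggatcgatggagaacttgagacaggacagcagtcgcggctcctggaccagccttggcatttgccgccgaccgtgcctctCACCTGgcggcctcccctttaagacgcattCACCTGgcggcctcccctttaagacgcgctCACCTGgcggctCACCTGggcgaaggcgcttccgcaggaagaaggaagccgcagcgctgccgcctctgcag
The Epcam matches began 187 and 19 bases before the start site. Those of Cldn4 began 14 bases before it and 12 bases after it. The Ap1m2 matches lay 81, 51, 21 and 9 bases before the start site, and those of Lsr 249, 219, 151 and 69 bases before it. Cldn3 held 1 match, Rab25 held 2, and of the 2 Cldn7 entries 1 held 2 matches and the other none. The grainyhead motif AACNGGTT was found once, in Rab25, 102 bases before the start site, and in 2.09% of all promoters. The core of the CTCF motif was found in none of the 8 entries and in 0.0365% of all promoters. Such matches describe letters in a window and no binding was measured here.

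Levels are given as scores, which are tag counts that the authors brought to a common distribution across libraries and rounded, with totals of 31777102 to 31798964 per sorted library. Scores were not divided by gene length, so levels are compared within a gene. Differences are on the log2(score + 1) scale, which understates change where scores are near 0, and a gene is called at a Benjamini-Hochberg adjusted p below 0.05 from limma over all genes. Ctcf itself was lower with its shRNA in 11 of 11 populations, by log2 differences from -0.52 at day 0 to -1.81 at day 12. Its scores were 790 and 830 with control shRNA and 520 and 616 with Ctcf shRNA at day 0, and 2381 and 2441 against 698 and 674 at day 12. Thy1 scored 5800 to 5888 in day 6 Thy1+ control cells and 81 to 119 in SSEA1+ cells, but in day 9 DN control cells it scored 2825 to 3200, close to the 3070 to 3172 of day 0 and below the 9549 to 11346 of day 9 Thy1+ cells. Day 9 SSEA1+ control libraries stood apart in markers of other cells, of which keratinocyte and trophoblast markers are given with the claudins: their summed score of 8 fibroblast markers was 34113 to 34729, against 2697 to 2941 at day 6 and 13288 to 14340 in day 12 GFP+ cells.

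All 9 genes stood at their lowest or near it at day 0 and were higher in day 12 GFP+ cells. Called higher at day 12 were 9 of 9, where 40.1% of all genes were, with a median log2 difference of 6.43 against -0.01 over all genes. In bulk samples, more cells with a transcript and more transcript per cell cannot be told apart. At day 0 with control shRNA, Ap1m2 scored 0 and 0, Cldn7 1 and 2, Cdh1 3 and 1, Cldn3 3 and 5, Epcam 4 and 8 and Rab25 8 and 2. Cldn4 scored 17 and 21, St14 54 and 43 and Lsr 90 and 78. These 3 were thus detected well above 0 in the unsorted day 0 cells, which also held macrophage markers. Of 9 such markers in the table, 7 were called lower and 1 higher at day 12, where 40.2% and 40.1% of all genes were. Ptprc, named after its values were seen, scored 396 to 416 at day 0 and 6 to 12 at day 12. Which cells held the 3 transcripts was not tested.

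The genes did not rise together along the SSEA1+ route. Called higher than day 0 in day 3 SSEA1+ cells were 6 of them, Cdh1, Epcam, St14, Ap1m2, Cldn3 and Cldn4, where 39.7% of all genes were called higher. Cldn7, Lsr and Rab25 followed at day 6, when all 9 were called (42% of all genes), and all 9 were called again at day 9 (36.8%). The share of the day 12 log2 gain reached at day 3 ordered them further: 80.8% for St14, 61.8% for Cdh1, 57.6% for Epcam, 38.2% for Cldn3, 35.8% for Ap1m2, 13.7% for Rab25, 13.0% for Lsr, 7.44% for Cldn4 and -12.3% for Cldn7. These shares are descriptions without a test, and those of the genes near 0 at day 0 depend on the pseudocount. They also depend on the size of the day 12 gain. The day 3 log2 difference itself was larger for Cdh1 (6.87) and Epcam (5.21) than for St14 (3.94).

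Among the adhesion molecules, Cdh1 scored 312 and 348 in day 3 SSEA1+ cells, 4772 and 4563 by day 6, 6638 and 6953 on day 9 and 5992 and 6534 in day 12 GFP+ cells. Its libraries of successive days did not overlap up to day 9, and the log2 difference from day 0 was 6.87 (SE 0.28) at day 3 and 10.69 at day 6. Epcam scored 232 and 262, 3454 and 3683, 3302 and 3179, and 3557 and 3504 at the same points. It was at its final level by day 6: the changes from day 6 to day 9 (-0.14, adjusted p = 0.58) and from day 9 to day 12 (0.12, adjusted p = 0.607) were not called. The matriptase gene St14 rose up to day 6 and stood lower at day 12. It scored 748 and 761, 2378 and 2279, 2188 and 2164, and 1430 and 1464 on days 3, 6, 9 and 12, a fall of the last step by 0.59 (SE 0.10, adjusted p = 9.43e-06).

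Of the sorting genes, Ap1m2 was first called at day 3 and Rab25 at day 6. Ap1m2 scored 5 and 14 in day 3 SSEA1+ cells, then 513 and 480, 610 and 580, and 553 and 524 on days 6, 9 and 12. Most of its gain fell between days 3 and 6, with a log2 difference of 5.71 (SE 0.47). Rab25 scored 6 and 7, 62 and 60, 146 and 108, and 85 and 64 on days 3, 6, 9 and 12. Its steps after day 6 were not called (1.03, adjusted p = 0.182, then -0.76, adjusted p = 0.313).

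Lsr, the tricellular junction gene, scored 110 and 114 in day 3 SSEA1+ cells, above the day 0 libraries but not called (0.41, adjusted p = 0.0547). It reached 892 and 821 at day 6 and stayed there, with 843 and 870 at day 9 and 752 and 790 at day 12. From day 3 to day 6 all 9 members were called higher (23.8% of all genes). From day 6 to day 9 the 3 claudins were called higher again, and they were the 3 members called in that step (22.5% of all genes were called higher). Cldn3 scored 24 and 15, 84 and 94, 767 and 640, and 208 and 182 at days 3, 6, 9 and 12. Cldn4 scored 26 and 28, 735 and 765, 3650 and 3450, and 1940 and 1949. Cldn7 scored 1 and 0, 116 and 134, 394 and 384, and 213 and 207. All 3 claudins thus peaked in day 9 SSEA1+ cells and stood lower in day 12 GFP+ cells. From day 6 to day 9 the log2 differences were 2.96 for Cldn3, 2.24 for Cldn4 and 1.63 for Cldn7. From day 9 to day 12, 3 members were called lower (33.6% of all genes): Cldn3 fell by 1.84 and Cldn4 by 0.87, with St14 as given above, while Cldn7 stood at -0.89 (adjusted p = 0.105). The fall was not particular to the claudins. In the same step 7 of 8 desmosome genes were called lower and 0 higher (median -1.22). Of 17 other tight junction and polarity genes 9 were called lower and 1 higher (median -0.54). Of 10 adherens junction partners 4 were called lower and 3 higher (median -0.09). Day 6 SSEA1+ cells held 12.7% of the peak Cldn3 level, 21.1% of the peak Cldn4 level and 32.1% of the peak Cldn7 level. They held 48.0% of that of Rab25, 68.7% of that of Cdh1 and 83.4% of that of Ap1m2. The Rab25 mean also peaked in day 9 SSEA1+ cells and stood at 58.7% of that peak in day 12 GFP+ cells. With a pseudocount of 8, 5 members were called in each of these steps, Cdh1 and Rab25 joining at day 9 and Cldn7 and Rab25 at day 12.

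Markers of other cells moved at the same steps. Beside the fibroblast markers given above, the summed score of the 4 keratinocyte markers in the table was 720 to 733 in day 6 SSEA1+ cells, 2044 to 2089 at day 9 and 980 to 983 at day 12. That of 5 trophoblast markers was 625 to 745, 2294 to 2389 and 1002 to 1035. No keratinocyte, trophoblast or fibroblast marker in the table was at 0 in both libraries of these groups. The part of such cells in the claudin peak was not tested.

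**Figure D1:**
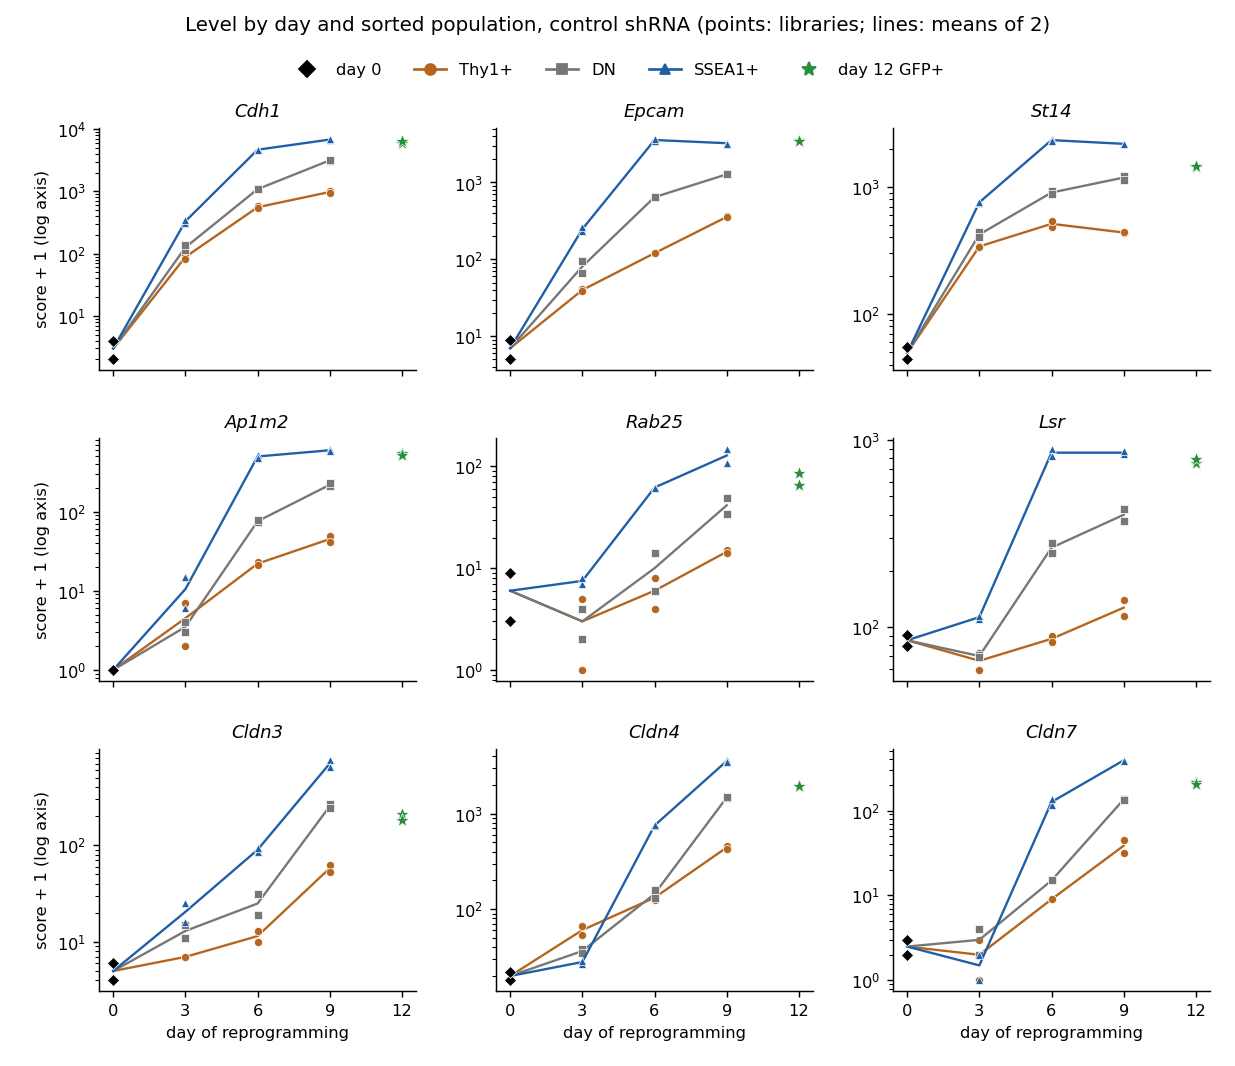
Score + 1 on a log axis against day for each of the 9 genes with control shRNA; points are libraries, lines join means of 2, and colours give Thy1+, double-negative (DN) and SSEA1+ cells and day 12 GFP+ cells. Cdh1, Epcam and St14 climb by day 3, Lsr, Ap1m2 and Rab25 mainly at day 6, and the 3 claudins go on rising to day 9 and lie lower at day 12.

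In cells that kept Thy1, 6 of the 9 genes were first called on the same day as along the SSEA1+ route, and Cldn3, Lsr and Rab25 later. Against day 0, 5 members were called higher in Thy1+ cells at day 3 (22.3% of all genes), 7 at day 6 (28.9%) and 9 at day 9 (30.3%). In DN cells the counts were 6 (29.8%), 8 (37.2%) and 9 (33.6%). In Thy1+ cells Cdh1 scored 94 and 81, 576 and 534, and 1008 and 948 on days 3, 6 and 9, every one far above the day 0 libraries. Lsr scored 72 and 58, 89 and 82, and 139 and 113, so its Thy1+ libraries at days 3 and 6 overlapped day 0 or lay below it. Rab25 scored 4 and 0, 7 and 3, and 14 and 13. The Thy1+ day 9 calls of Lsr (0.58, adjusted p = 0.0107) and Rab25 (1.48, adjusted p = 0.0434) did not hold when single libraries were left out, with Lsr at 0.43 to 0.47 and Rab25 at 0.69 to 1.53. The day 3 calls of Ap1m2 near 0, in Thy1+ cells (scores of 1 and 6) and in DN cells (3 and 2), ended with a pseudocount of 8 (adjusted p = 0.107 and 0.172). Under quantile normalization the day 6 Thy1+ calls of Cldn7 (0.40, adjusted p = 0.513) and Cldn3 (0.05, adjusted p = 0.885) ended. So did those of Cldn7 in day 6 DN cells (0.91, adjusted p = 0.115) and Cldn3 in day 3 DN cells (0.30, adjusted p = 0.405). At day 3 that setting called Cldn7 lower than day 0 in Thy1+ (-1.94) and SSEA1+ cells (-1.49). It also called Rab25 lower in day 3 Thy1+ (-2.25) and DN cells (-1.58), all at scores near 0. Lsr became called higher in day 3 SSEA1+ cells (0.45, adjusted p = 0.0399).

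Within each day, SSEA1+ cells held more of most members than Thy1+ cells did. Called higher in SSEA1+ cells were 7 of 9 at day 3 (35.4% of all genes), 9 at day 6 (42.4%) and 9 at day 9 (38.8%). At day 6 the log2 differences ran from 2.19 for St14 to 4.89 for Epcam, with 3454 and 3683 against 120 and 119 for Epcam. At day 9 they ran from 2.32 for St14 to 3.73 for Ap1m2, and both SSEA1+ libraries lay above both Thy1+ libraries for 9 of 9 members, as for 47.7% of all genes. The DN cells lay between: 2 members were called higher in them than in Thy1+ cells at day 3 (13.9%) and 1 lower (14.4%), 6 higher at day 6 (35%) and 9 at day 9 (30.1%). SSEA1+ cells were called higher than DN cells for 5 members (23.8%) and lower for 1 (20.9%) at day 3. They were called higher for 9 members at day 6 (19.8%) and 8 at day 9 (11.3%), the exception at day 9 being Rab25 (1.63, adjusted p = 0.0575). The day 9 calls of Ap1m2 (1.39 to 1.51) and Cldn7 (1.51 to 1.55) over DN cells ended when single libraries were left out. So did the day 9 call of Rab25 in DN over Thy1+ cells (1.23 to 1.76).

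Cldn4 was the exception at day 3. It scored 53 and 66 in Thy1+ cells, 37 and 34 in DN cells and 26 and 28 in SSEA1+ cells, so the cells furthest on the route held the least. It was called lower in SSEA1+ than in Thy1+ cells (-1.10, SE 0.11, adjusted p = 1.39e-09), the single member called in that direction, where 28.8% of all genes were. It was also the 1 member lower in DN than in Thy1+ cells (-0.72) and in SSEA1+ than in DN cells (-0.38), the last of which ended under quantile normalization (-0.06). At day 6 the order had turned, with 138 and 124, 156 and 131, and 735 and 765. Cldn3, its neighbour on chromosome 5, did not share the day 3 pattern, with 6 and 6, 10 and 14, and 24 and 15, called higher in SSEA1+ cells (1.51, adjusted p = 0.000302). Day 3 differences of Rab25 (1.74) and Ap1m2 (1.34) rested on scores under 15, and each ended when single libraries were left out.

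The other junction genes are read against the 40.1% of all genes called higher and the 40.2% called lower at day 12 against day 0. Of 17 other tight junction and polarity genes, 13 were called higher and 3 lower at day 12 against day 0 (median 1.64), with Cldn6 at 7.78 and Cgn, which encodes cingulin, at 3.77, and Cldn12 at -2.04. All 8 desmosome genes were called higher (median 2.91), among them the desmosomal cadherin gene Dsg2 at 7.39 and the desmoplakin gene Dsp at 4.09. Of 10 adherens junction partners, which fibroblasts also use, 5 were called higher and 3 lower (median 0.17), with Cdh3 at 1.87 and Nectin3 at -1.39. The matriptase inhibitors Spint1 and Spint2 stood at 5.99 and 5.21, and all 4 genes of that list were called higher. Of the partners of Rab25 and of the AP-1 adaptor, 2 of 10 were called higher and 6 lower (median -0.30), with Ap1s3 at 2.98 and Ap1s2 at -2.13. All 10 epithelial transcription and splicing factors were called higher (median 5.08), with Esrp1 at 9.98 and Grhl2 at 8.88. All 8 EMT transcription factors were called lower (median -4.12), with Snai2 from 2217 to 70.0 and Zeb2 from 1821.5 to 100.5 in mean score. Among 7 mesenchymal adhesion genes, 7 were called lower, N-cadherin (Cdh2) by -4.49. At day 6, SSEA1+ against Thy1+ cells gave 13 higher and 2 lower of the 17 tight junction genes, 7 and 0 of 8 desmosome genes, and 0 and 8 of the EMT factors, where 42.4% and 33.8% of all genes were called.

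The profiles of the 9 genes were alike but not equal. Over the 22 group means of both shRNA arms, the correlation of log2(score + 1) between 2 members ran from 0.68 for Lsr and St14 to 0.98 for Cdh1 and Epcam, with a median of 0.89 over 36 pairs. Cldn3 and Cldn4 stood at 0.93, and Cldn4 and Cldn7 at 0.98. The non-member genes most like the mean profile of the 9, out of 8759 with a highest group mean at or above the table's median score, were Spint1 (0.98), Lad1 (0.98), Frem2 (0.98), Grhl2 (0.97), Lrch1 (0.97), Slc2a3 (0.97), Hs6st1 (0.97) and Trh (0.97). The members themselves ran from 0.87 for St14 to 0.98 for Ap1m2 against that mean, which holds them. The points share libraries and a route, and no test was made of these values.

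Less Ctcf did not lower the 9 genes as a group in most populations. The plot of the Ctcf shRNA effect shows 3 patterns: Lsr was lower in most early and middle populations, Cldn4 and St14 were higher at the start, and 7 members were lower in day 9 Thy1+ cells. Over the mean of the 11 populations 2 members were called higher (26.2% of all genes) and 2 lower (25.8%), with a median of -0.03. These were Lsr at -0.77 (SE 0.06, adjusted p = 1.51e-11), Epcam at -0.22, Cldn4 at 0.11 and St14 at 0.11. Without day 9 Thy1+ cells the Epcam mean was -0.06 (adjusted p = 0.476), and without day 0 the Cldn4 mean was 0.04 (adjusted p = 0.328), both chosen after seeing the data. Over the same mean, the matriptase inhibitors Spint1 (-0.47) and Spint2 (-0.34) were called lower, 3 of 4 in their list, while 5 of 8 desmosome genes were called higher and 0 lower, with Ppl at 0.77 and Dsp at 0.45. The adherens junction list had 3 called each way, the tight junction list 4 higher and 3 lower, and the epithelial factors 2 and 3. The EMT factors had 4 and 1, the Rab11 and AP-1 partners 6 and 1 and the mesenchymal adhesion genes 4 and 0. Of 4 keratinocyte markers in the table, 4 were called higher (median 0.72).

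**Figure D2:**
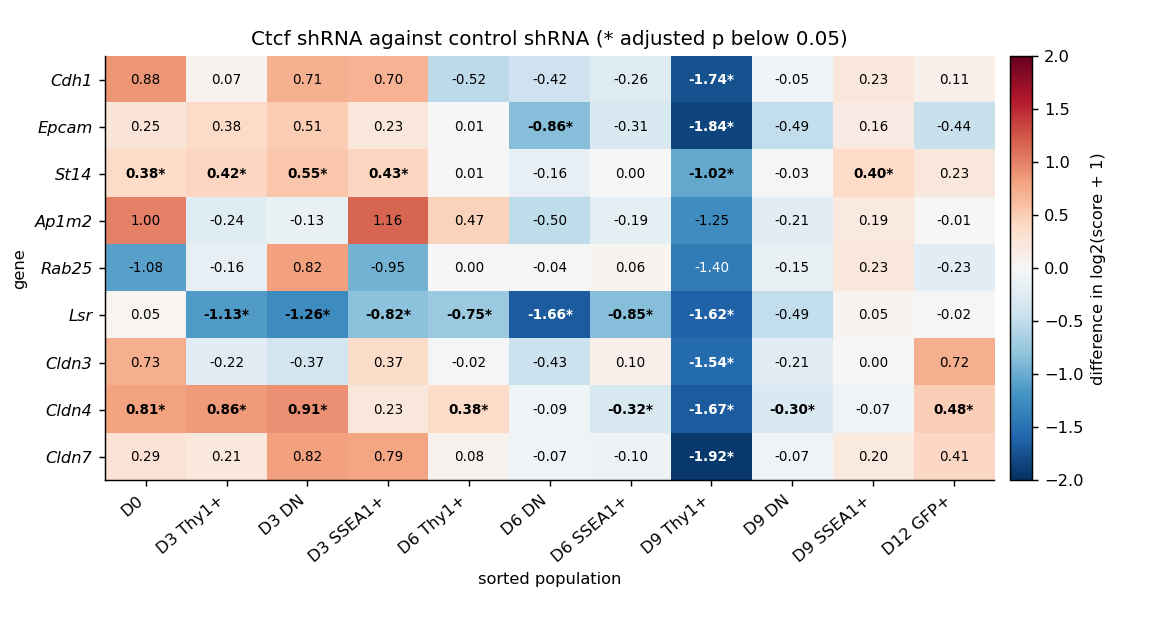
Difference in log2(score + 1) between Ctcf shRNA and control shRNA for 9 genes in 11 populations, 2 libraries per shRNA in each; blue is lower and red higher with Ctcf shRNA, and asterisks mark adjusted p below 0.05. Lsr is lower with an asterisk in 7 populations, and the day 9 Thy1+ column holds 7 lower calls between -1.02 and -1.92.

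Lsr was called lower in 7 of 11 populations, as few other genes were: 1.29% of all genes were called lower in as many or more. With control shRNA against Ctcf shRNA it scored 72 and 58 against 28 and 30 in day 3 Thy1+ cells, 70 and 68 against 33 and 24 in DN cells, and 110 and 114 against 64 and 62 in SSEA1+ cells. No library of one arm overlapped the other at day 3, and the differences were -1.13, -1.26 and -0.82. At day 6 it scored 89 and 82 against 48 and 53 in Thy1+ cells, 248 and 282 against 66 and 104 in DN cells, and 892 and 821 against 463 and 486 in SSEA1+ cells. The day 6 differences were -0.75, -1.66 (SE 0.19, adjusted p = 1.2e-07) and -0.85, again with no overlap. In day 9 Thy1+ cells it scored 139 and 113 against 32 and 50 (-1.62, SE 0.19, adjusted p = 4.97e-07).

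Lsr was not called at the ends of the route. It scored 90 and 78 against 72 and 104 at day 0 (0.05), 843 and 870 against 861 and 910 in day 9 SSEA1+ cells (0.05) and 752 and 790 against 734 and 786 in day 12 GFP+ cells (-0.02). Day 9 DN cells lay between, with 370 and 426 against 280 and 284 (-0.49, adjusted p = 0.0557). The difference of the effect between SSEA1+ and Thy1+ cells was called at day 9 (1.67, SE 0.27, adjusted p = 6.88e-05) and not at day 3 (0.31, adjusted p = 0.941) or day 6 (-0.10, adjusted p = 0.902). The day 3 SSEA1+ and day 6 Thy1+ calls each ended without single libraries (adjusted p = 0.0566 to 0.0789). Beside Lsr, the fibroblast marker sum was 80628 to 86344 against 66971 to 76754 in day 3 Thy1+ cells, 5015 to 5344 against 6084 to 6181 in day 3 SSEA1+ cells and 2697 to 2941 against 3608 to 4194 in day 6 SSEA1+ cells. It was 174233 to 183428 against 118328 to 119355 in day 6 Thy1+ cells and 23887 to 24735 against 53289 to 53745 in day 6 DN cells. In day 3 DN cells it was 42385 to 46531 against 42218 to 42771, and its part in the Lsr differences was not tested.

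**Figure D3:**
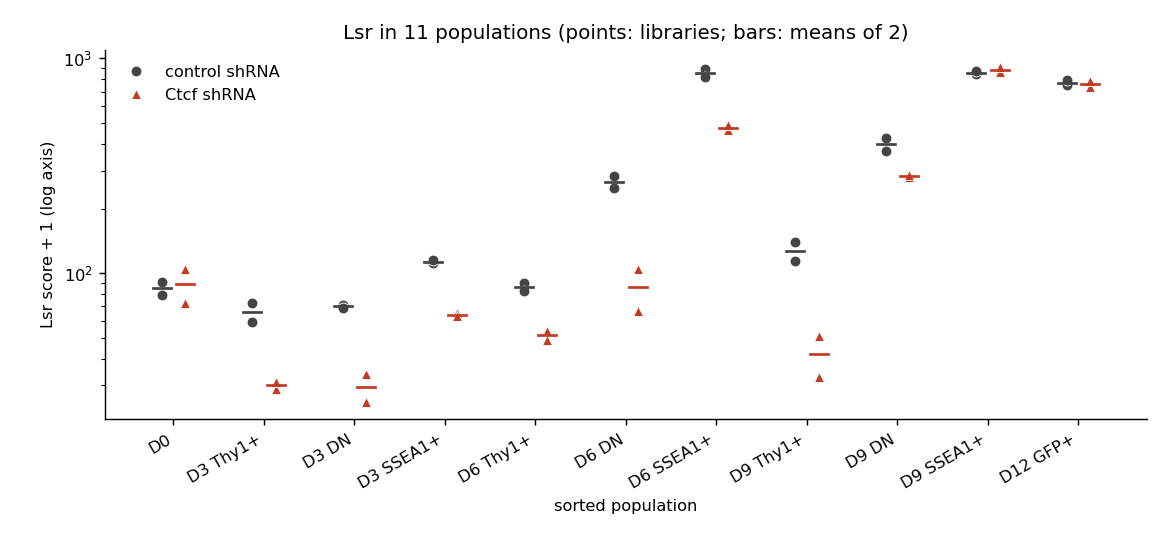
Lsr score + 1 on a log axis in 11 populations with control shRNA (dark circles) and Ctcf shRNA (red triangles); points are libraries and bars are means of 2. The arms lie apart at days 3 and 6 and in day 9 Thy1+ and DN cells, and overlap at day 0, in day 9 SSEA1+ cells and at day 12.

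Cldn4 and St14 were higher with Ctcf shRNA at the start of the route. At day 0 they were the 2 members called higher, where 2.93% of all genes were called higher, and no member was called lower (3.75%). Above 0 in this difference were 8 of 9 members. Cdh1, not called, stood at 0.88 at day 0 (adjusted p = 0.0577), 0.71 in day 3 DN and 0.70 in day 3 SSEA1+ cells. With a pseudocount of 8 Cdh1 was called higher in those DN and SSEA1+ cells, and lower in day 6 Thy1+ and DN cells. Near 0 in score at day 0, it was called there with the replicate block (adjusted p = 0.0463). Cldn4 scored 17 and 21 against 32 and 36 at day 0, 53 and 66 against 108 and 108 in day 3 Thy1+ cells and 37 and 34 against 65 and 70 in day 3 DN cells, with no overlap. The differences were 0.81, 0.86 and 0.91. St14 scored 54 and 43 against 64 and 62, 344 and 334 against 494 and 419, and 442 and 401 against 612 and 620 in the same cells, and 748 and 761 against 1117 and 928 in day 3 SSEA1+ cells, with differences of 0.38, 0.42, 0.55 and 0.43. The counts of members called higher and lower were 2 (1.46%) and 1 (2.56%) in day 3 Thy1+ cells, 2 (2.34%) and 1 (2.54%) in DN cells and 1 (3.56%) and 1 (3.22%) in SSEA1+ cells, the lower one being Lsr each time. The St14 calls at day 0 and in day 3 Thy1+ and SSEA1+ cells ended without single libraries (0.22 to 0.44). Keratinocyte markers, named after their values were seen, also moved at day 3. Mean Krt14 scores were 53 against 268 in Thy1+, 13.5 against 126 in DN and 5 against 99 in SSEA1+ cells. Those of Krt17 were 12.5 against 37.5, 9.5 against 45 and 14.5 against 49. At day 0 they were 12 against 16 for Krt14 and 3 against 0.5 for Krt17. The part of such cells was not tested.

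Later the direction of Cldn4 turned. In day 6 Thy1+ cells it was still higher, at 138 and 124 against 164 and 177 (0.38), the member called higher there (6.83%) beside Lsr as the one called lower (7.56%). In day 6 SSEA1+ cells it scored 735 and 765 against 596 and 606 (-0.32), and Lsr and Cldn4 were the 2 members called lower (11% of all genes), with 0 higher (11.2%). In day 9 DN cells it scored 1466 and 1480 against 1159 and 1233 (-0.30), the single member called lower (13.4%), with 0 higher (14.6%). In day 12 GFP+ cells it scored 1940 and 1949 against 2658 and 2786 (0.48, adjusted p = 0.00064), the single member called higher (24.6%), with 0 lower (24.7%). St14 was the 1 member called higher in day 9 SSEA1+ cells (4.8%; 0 lower, 9.04%), at 2188 and 2164 against 2832 and 2896 (0.40). Each Cldn4 call between days 6 and 9 outside day 9 Thy1+ cells ended when single libraries were left out (adjusted p = 0.0786 to 0.185). Epcam was called lower beside Lsr in day 6 DN cells, at 644 and 644 against 368 and 343 (-0.86, adjusted p = 0.000919), where 21.9% of all genes were called lower and 20.2% higher. In those cells 8 of 8 EMT factors and 7 of 7 mesenchymal adhesion genes were called higher with Ctcf shRNA, and the pluripotent marker sum was 316 to 321 against 91 to 106. At day 12 the same lists again had 8 and 7 called higher, and the fibroblast marker sum was 13288 to 14340 against 37688 to 38199, while 8 of the 9 members were not called. The part of such cells in these differences was not tested.

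In day 9 Thy1+ cells, 7 of 9 members were called lower with Ctcf shRNA, against 12.1% of all genes, and 0 higher, against 7.51%. The members' median difference was -1.62, against 0.02 over all genes. Cdh1 scored 1008 and 948 against 300 and 284 (-1.74, SE 0.28, adjusted p = 4.56e-05). Epcam scored 362 and 350 against 132 and 74 (-1.84, SE 0.20, adjusted p = 8.65e-08). St14 scored 433 and 440 against 213 and 216 (-1.02, SE 0.10, adjusted p = 1.28e-08). For 8 of the 9 genes, all but Lsr, the difference in these cells was the lowest of the 11 populations. Cldn3 scored 62 and 52 against 17 and 21 (-1.54), Cldn4 456 and 427 against 138 and 138 (-1.67), and Cldn7 44 and 31 against 9 and 9 (-1.92). Rab25, at 14 and 13 against 4 and 5 (-1.40, adjusted p = 0.124), and Ap1m2, at 48 and 40 against 16 and 20 (-1.25, adjusted p = 0.0638), were not called. The Ctcf shRNA libraries lay below both control libraries for 9 of 9 genes, as they did for 27.4% of all genes. The same 7 were called in a fit of these 4 libraries alone, chosen after seeing the data. Rab25 and Ap1m2 were also called with a pseudocount of 8, and Cldn7 was not called without control replicate 1 (adjusted p = 0.0597).

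The effect at day 9 differed between Thy1+ and SSEA1+ cells. The difference was called for 7 of 9 members, all higher in SSEA1+ cells, where 10.3% of all genes were: Cldn7 (2.12), Epcam (2.00), Cdh1 (1.97), Lsr (1.67), Cldn4 (1.60), Cldn3 (1.54) and St14 (1.42). It was 1.63 for Rab25 (adjusted p = 0.216) and 1.44 for Ap1m2 (adjusted p = 0.136). In SSEA1+ cells Cdh1 scored 6638 and 6953 against 7505 and 8478, and Epcam 3302 and 3179 against 3742 and 3493, neither called. Markers of other cells also differed in day 9 SSEA1+ cells, given as mean scores with control against Ctcf shRNA. Col1a1 scored 12428 against 5346.5, Col3a1 4196 against 1232 and Thy1 1341.5 against 446.5. Krt14 scored 77.5 against 205 and Krt17 522 against 977.5. These markers were named after their values were seen, and their part in the day 9 difference was not tested. At day 3, 0 of 9 members were called for this difference by limma, as 0.201% of all genes were, and 2 had an unadjusted p below 0.05, Cldn4 (-0.63, adjusted p = 0.0938) and Ap1m2 (1.40, adjusted p = 0.712). At day 6 it was called for Cldn4 alone (-0.70, adjusted p = 0.00621), lower in SSEA1+ cells as 2.47% of all genes were. Between day 12 GFP+ and day 9 SSEA1+ cells the effect differed for 1 member, Cldn4 (0.56, adjusted p = 0.00532), where 21.2% of all genes were called higher. The Cldn7 and Cldn3 differences at day 9 ended when single libraries were left out (adjusted p = 0.0501 to 0.0974), leaving 5 to 7 members called.

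Some other lists moved with the members in day 9 Thy1+ cells, where 12.1% of all genes were called lower and 7.51% higher. Of 8 pluripotent cell markers 4 were called lower and 0 higher (median -1.67), and their summed score was 506 to 543 against 133 to 204. Nanog scored 180 to 187 against 41 to 70. Called lower, with those called higher in brackets, were 6 of 17 tight junction genes (0), 5 of 8 desmosome genes (1), 5 of 10 epithelial factors (0) and 3 of 4 matriptase inhibitors and partners (0). Lists near 0 were the adherens junction partners, with 2 of 10 lower (1) and a median of -0.02, and the Rab11 and AP-1 partners. The latter had 2 of 10 lower (2) and a median of 0.09. Of 4 keratinocyte markers 0 were called lower and 1 higher. Of 8 EMT factors 2 were called higher, Snai2 at 0.55 and Prrx1 at 0.33, named here after their values were seen, as is Nanog. The fibroblast marker sum was 278886 to 292043 against 239903 to 282367, with ranges that overlapped, and 3 of 8 fibroblast markers were called lower and 0 higher, with Lum at -1.05, Col1a2 at -0.36 and Col3a1 at -0.36. Of 7 mesenchymal adhesion genes 2 were called higher and 0 lower, Cdh2 at 0.41 and Vim at 0.23. These 5 genes too were named after their values were seen. Fewer cells on the route within the Thy1+ gate and less RNA of these genes per cell cannot be told apart.

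**Figure D4:**
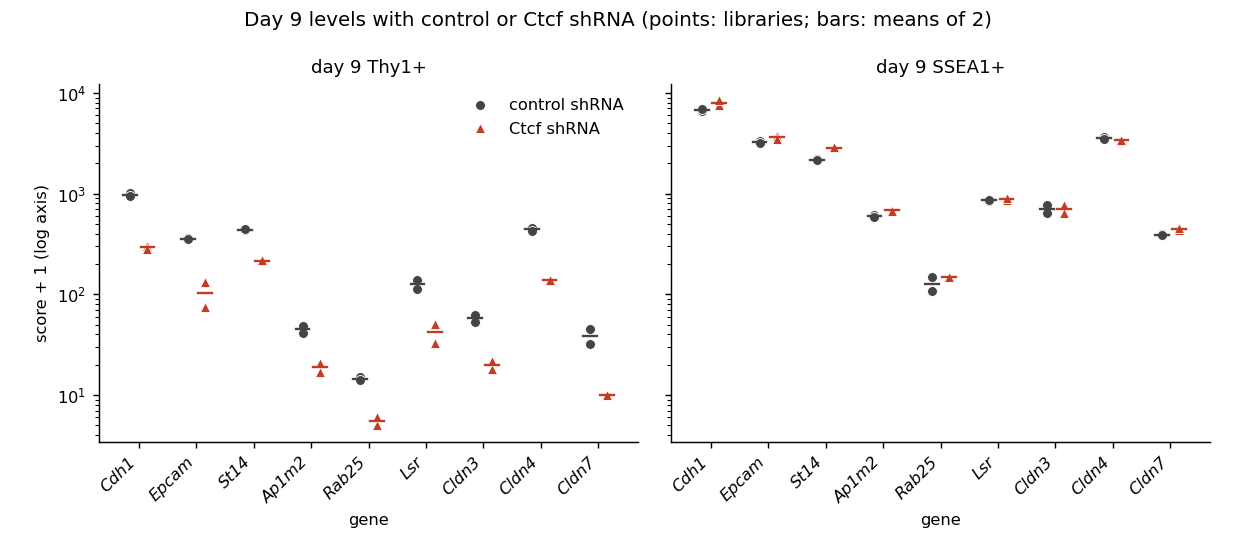
Score + 1 on a log axis for the 9 genes at day 9 in Thy1+ cells (left) and SSEA1+ cells (right) with control shRNA (dark circles) and Ctcf shRNA (red triangles); points are libraries and bars are means of 2. All 9 genes lie lower with Ctcf shRNA in Thy1+ cells, 7 of them called, while in SSEA1+ cells St14 is the 1 gene called, and higher. Heights of different genes are not comparable, since scores are not divided by gene length.

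At day 10, more CTCF was set against a control in cells with retroviral factors. Ctcf scored 1262 and 1234 in the control columns, 5110 and 6132 with CTCF overexpression and 7225 and 5205 with the added Smarca5 shRNA. The 2 control columns differed by less than the sampling noise (0.327 of the counting spread, against 1.6 to 12.6 in the other 24 replicate pairs) and were counted as 1 sample. The fit then had 2 residual degrees of freedom, both from the other 2 groups, so the control is assumed to vary as they do, and even Ctcf, 2.16 higher, was not called (adjusted p = 0.217). By limma, 0 of 9 members were called with CTCF overexpression (0.0618% of all genes were called), while 4 members were lower and 0 higher at an unadjusted p below 0.05, as 3.26% and 2.81% of all genes were.

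Those 4 were Rab25, Cldn7, Cldn3 and St14. Rab25 scored 1180 and 1218 in the control columns, 630 and 604 with CTCF and 802 and 736 with CTCF and Smarca5 shRNA. Cldn7 scored 1505 and 1496, 692 and 854, and 1213 and 1144. Cldn3 scored 2282 and 2282, 1238 and 1510, and 2227 and 2166. St14 scored 4310 and 4278, 2778 and 2948, and 3688 and 2980. Their log2 differences were -0.96 (SE 0.13), -0.96 (SE 0.17), -0.74 (SE 0.16) and -0.59 (SE 0.16). Both CTCF libraries lay below both control columns for these 4 and for Ap1m2, 5 of 9 members where 26.2% of all genes did, and above both for Lsr, where 29.6% did. With both control columns kept as samples, Rab25 and Cldn7 were called (adjusted p = 0.0174 and 0.0448). That setting counts 2 columns that differed by less than the sampling noise as separate samples, and the SE of Rab25 was then 0.08. The adhesion genes showed no such separation. Cdh1 scored 4835 and 4871, 3651 and 5208, and 5280 and 4928, Epcam 8332 and 8332, 7123 and 8467, and 9896 and 8215, and in both genes the CTCF libraries lay on either side of the control. Lsr scored 1360 and 1374, 1449 and 1446, and 1505 and 1436, and Ap1m2 660 and 656, 512 and 544, and 740 and 627. Cldn4 scored 6385 and 6287, 3245 and 7002, and 6214 and 8330, the widest replicate spread of the 9.

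With the Smarca5 shRNA added to CTCF, 0 of 9 members were called (0.0773% of all genes), and 4 were higher at an unadjusted p below 0.05, as 0.711% of all genes were. These were Cldn3 (0.68), Cldn7 (0.62), Ap1m2 (0.37) and Rab25 (0.32). Both libraries lay above both CTCF libraries for these 4 and for St14, 5 of 9 members where 8.68% of all genes did, and below both for 0 of 9, where 10.3% did. Against the control, 0 of 9 were called (0.101%), and Rab25 was the 1 member lower at an unadjusted p below 0.05 in limma (-0.64, adjusted p = 0.715), as 2.44% of all genes were. These contrasts share the CTCF libraries or the control, so opposite signs between them are not separate measurements. Smarca5 itself stood at -1.06 against CTCF alone (adjusted p = 0.0695). Keratinocyte markers were lower beside the 4 genes, their sum over 6 markers being 29839 to 29944 in the control, 15730 to 18604 with CTCF and 19364 to 20769 with the Smarca5 shRNA. The pluripotent marker sum was 7196 to 7257, 11786 to 16222 and 9972 to 11816. In the other lists 0 genes were called with CTCF, and the median differences were -0.69 for the epithelial factors, -0.51 for the desmosome genes and -0.26 for the tight junction genes. The part of such cells was not tested.

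**Figure D5:**
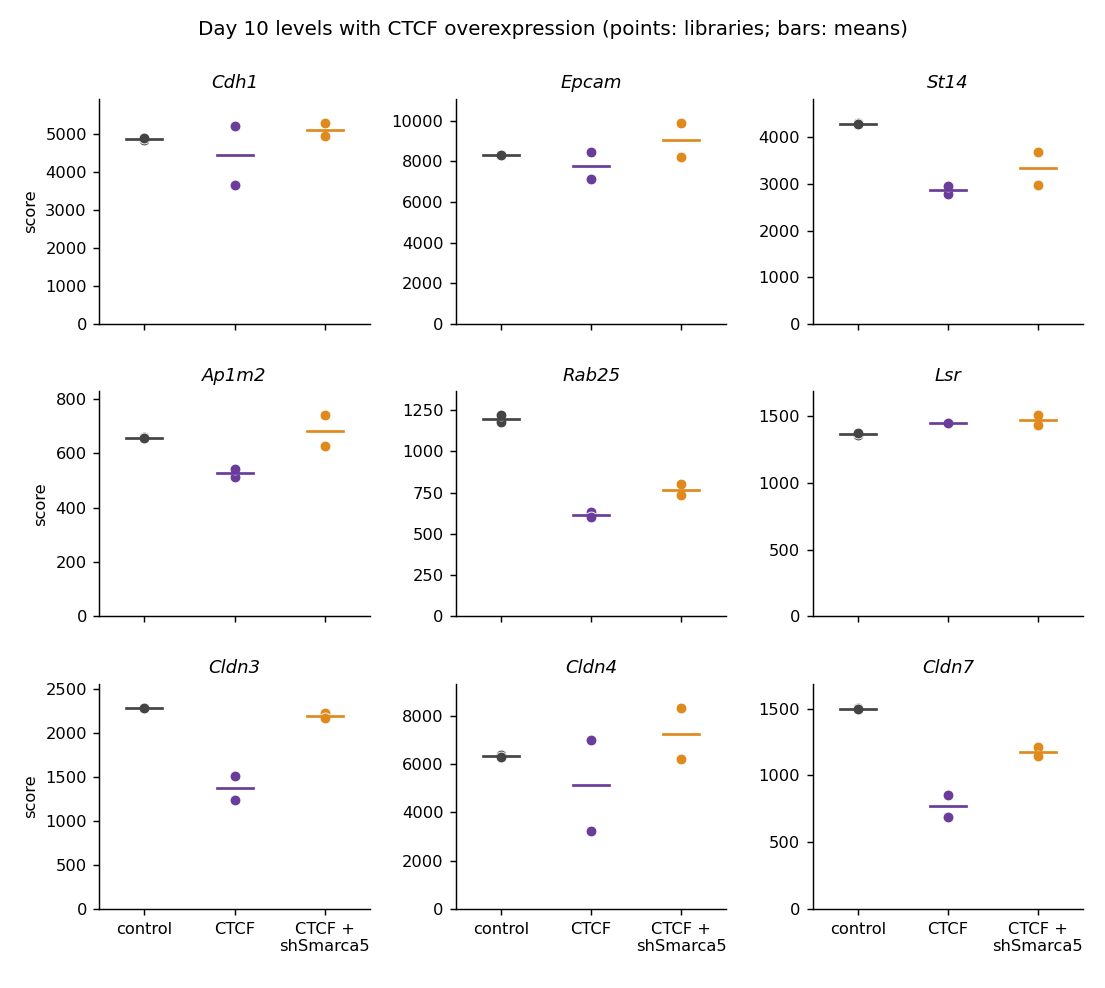
Scores of the 9 genes at day 10 on linear axes from 0 in control cells, cells with CTCF overexpression and cells with CTCF overexpression and Smarca5 shRNA; points are library columns and bars their means, and the 2 control columns count as 1 sample. Rab25, Cldn7, Cldn3 and St14 lie lower with CTCF, and none of the 9 passed the adjusted test.

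The authors' deposited tables hold their own comparisons at day 10, with 2 means, a log2 ratio and a p-value; the tables do not state whether it was adjusted. In the authors' deposited table on overexpression, Ctcf was higher by 2.32, and Cldn7 stood at -0.84 (p = 7.39e-08), Rab25 at -0.76 (p = 6.69e-06), St14 at -0.49 (p = 0.00252) and Cldn3 at -0.57 (p = 0.0141) in the condition with more Ctcf. The other 5 members had p from 0.236 to 0.991 in the authors' deposited table. In the authors' deposited table on Ctcf shRNA, Ctcf stood at -0.34, Cdh1 at -0.20 (p = 4.24e-14), Epcam at -0.18 (p = 8.96e-13), Lsr at -0.18 (p = 0.0157) and Cldn4 at 0.17 (p = 2.04e-08) in the condition with less Ctcf. The other 5 members in the authors' deposited table had p from 0.564 to 0.989. The tables do not name which mean belongs to which condition, so the direction was taken from the level of Ctcf. The log2 differences given here were computed from the authors' 2 means of each gene, and the p-values are theirs.

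The end points have 1 library each and no replicate check. All 9 genes had a larger share of all counts in iPSCs than in MEFs. With a pseudocount of 0.5 added to both depth-scaled counts, every member but Rab25 was at least 8-fold higher, as 6% of all genes were. Rab25 stood at a log2 ratio of 2.73 on that measure, which is below 8-fold. The totals were 16593659 counts in MEFs and 9912018 in iPSCs, and the intervals are exact and cover counting error only. Cdh1 had 1 count in MEFs and 39133 in iPSCs, a ratio of shares of 65512 (95% interval 11757.5 to 2587666), and Epcam had 2 and 2358, a ratio of 1974 (546 to 16307). Lsr had 26 and 1533, a ratio of 98.7 (95% interval 67.1 to 152), St14 had 47 and 2404, a ratio of 85.6 (64.2 to 117), and Cldn4 had 21 and 8918, a ratio of 711 (465 to 1149). The 3 genes with the highest day 0 scores were thus also the 3 with more than 2 reads in MEFs. Cldn7 had 1 and 384 (ratio 643, interval 115 to 25457), Cldn3 1 and 319 (534, interval 95.2 to 21159) and Ap1m2 1 and 76 (127, interval 22.2 to 5091). Rab25 had 0 and 28, a ratio of 15.6 against a floor of 3 counts in the MEF library. The lower end of its 95% interval, taken without that floor, was 11.9.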

How the data were processed

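RNA was measured by bulk sequencing of total RNA, extracted with TRIzol and made into libraries with the NEBNext Ultra kit, per the labels' protocols. FastQC, Trim Galore and RSEM are named in the submitters' processing notes, without versions, with build mm10 for 54 samples and mm9 for 2. The deposited values of the sorted cells and of day 10 overexpression are scores: tag counts that the authors normalized between libraries and rounded, as read from near-equal totals, since the method is not given in the sources used here. The MEF and iPSC values are counts deposited by the authors, 1 library each. The authors' deposited comparison tables give a log2 ratio and a p-value per gene. Of 56 samples, 52 have a column, and the 4 day 10 shRNA samples were not analysed here. Day 10 overexpression totals were 19465402 to 19479768. Since scores are not raw counts, no count test was run.

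Scores were tested as log2(score + 1) with limma 3.58.1 (R 4.3.3, trend), 2-sided, in 1 fit of 22 groups over 44 libraries (22 residual degrees of freedom) and 1 fit of the day 10 table. The filter was a score of 10 or more in 2 libraries. Adjusted p-values are Benjamini-Hochberg over all genes of a table. All 9 genes were named, and of each other list up to 4 called genes with the largest change whose higher mean reached the table's median score. The members, lists and tests were chosen with earlier results of these data known. The alternatives were a pseudocount of 8, a mean score of 50, quantile normalization, no trend, the replicate block, both control columns kept, and each library left out. The scripts were tested on simulated data. Summaries used Python 3.11.15, pandas 2.3.3 and scipy 1.17.1.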

Additional observations from a re-analysis of the deposited data

Results flagged for a closer look

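The effect of Ctcf shRNA differed between populations for 7 of the 9 genes by a test of the difference itself in limma, and the values are differences of log2 differences with adjusted p below 0.05. At day 9, SSEA1+ minus Thy1+ cells gave 2.12 for Cldn7, 2.00 for Epcam, 1.97 for Cdh1, 1.67 for Lsr, 1.60 for Cldn4, 1.54 for Cldn3 and 1.42 for St14. At day 6 the same difference was -0.70 for Cldn4, which stood higher with Ctcf shRNA in Thy1+ cells and lower in SSEA1+ cells. Between day 12 GFP+ and day 9 SSEA1+ cells it was 0.56 for Cldn4. Of all genes, 10.3% were called higher for the day 9 difference and 2.47% lower for the day 6 difference. For the difference between day 12 and day 9, 21.2% were called higher. The day 9 calls of Cldn7 and Cldn3 ended when single libraries were left out. That of Cldn7 also ended under quantile normalization (1.96, adjusted p = 0.0579). Beside the day 9 values, the pluripotent marker sum in Thy1+ cells was 506 to 543 with control shRNA and 133 to 204 with Ctcf shRNA, and in SSEA1+ cells 4737 to 4913 and 5904 to 6349. Its part in the differences was not tested.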

How the results depend on the processing

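With a pseudocount of 8 the count of members called was 5 in the step from day 6 to day 9 and 5 in the step from day 9 to day 12 (3 each as reported), 3 for Ctcf shRNA in day 9 DN cells and 5 at day 12 (1 each), and 2 for the day 12 minus day 9 difference (1). Under quantile normalization these last 3 counts were 2, 4 and 2, and 1 member was called for the day 3 difference (0 as reported). With both control columns kept, 2 members were called for CTCF overexpression (0 as reported). The shares of all genes called under these alternative settings are not given here, so these counts cannot be read against them. Leaving out single libraries gave 0 to 0 calls for Ctcf shRNA in day 9 DN cells, 1 to 1 in day 6 Thy1+, day 3 SSEA1+ and day 6 SSEA1+ cells, 1 to 3 at day 0, and 0 to 1 for the day 3 difference. Rab25 in day 9 Thy1+ cells against day 0 turned from 1.48 to -0.12 under quantile normalization. The cause was not tested. Values that changed sign without a call under either setting are not counted here.

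The replicate numbers did not pair the samples: over 231 pairs of groups, same-numbered libraries deviated together with correlations from -0.103 to 0.131 (median 0.014), 17 of them over 0.1. With the replicate block, 2 members were called for Ctcf shRNA at day 12 (1 as reported). With 2 libraries a group and scores near 0 at day 0, small changes of Rab25, Cldn7 and Ap1m2 were not detectable.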
